A study of Mus musculus with 25 samples.

Results

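The p53 gene and 9 core members of its pathway were followed gene by gene through 6 RNA-seq libraries of mouse hematopoietic stem cells. These 10 genes, out of 23116 in the processed table, were *Trp53* itself, its inhibitors *Mdm2* and *Mdm4*, and the targets *Cdkn1a*, *Ccng1*, *Pmaip1*, *Bbc3*, *Perp*, *Trp53inp1* and *Zmat3*. They were chosen by name from the comparison of *Znf143 -/-* with *Znf143 f/f* libraries, with its results known. Their differences between genotypes are therefore given as a description, and their calls in the fit of all genes are not independent of that choice. All 10 were found in the table under these symbols, and all 10 passed the filter on low values, *Pmaip1* only through its *Znf143 -/-* libraries.

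The samples were HSLAM cells (LSK+ CD150+ CD48-), the phenotypic long-term stem cell gate of bone marrow, sorted from adult male mice aged 8 to 12 weeks, of the strain C57BL/6 by the labels. The mice were littermates in 3 pairs, 1 of each genotype, but which libraries form a pair is not given in the sources used here, so that the fit could not use the pairing. The 3 *Znf143 f/f* mice lacked Cre and the 3 *Znf143 -/-* mice carried *Rosa26ERT2-Cre*, and both genotypes had loxP sites around exon 1 of *Znf143* and received tamoxifen at the middle dosage for 10 days. Since this Cre is expressed in every tissue and was present in 1 genotype only, loss of ZNF143 in the stem cells, loss of it elsewhere in the animal and activity of the Cre itself cannot be told apart. The sample labels name the deleted genotype a CTCF knockout, whereas the study describes *Znf143 -/-* mice, and the libraries were assigned by their WT and KO labels.

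p53 is a transcription factor that is kept low by the ubiquitin ligase MDM2 and by its relative MDM4, and that is stabilized mostly at the protein level when DNA is damaged or ribosome assembly fails. It binds a pair of adjoining half-sites and raises genes for cell cycle arrest, cell death, repair and its own inhibition. In hematopoietic stem cells p53 and p21, the product of *Cdkn1a*, are known for keeping cells quiescent, and PUMA (*Bbc3*) and NOXA (*Pmaip1*) for their death after irradiation.

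Among 10 RefSeq promoters (250 bases before to 50 after a start, GRCm38.p6) that matched 6 of the 10 genes, 2 held a p53 consensus site with at most 1 mismatch from the 20 bases and with the C and G of each half-site core intact, read on both strands. Such a site was found in 22 of all 32851 promoters (0.067%). It lay at position -51 from the upstream start of *Cdkn1a* and at -195 from the start of *Ccng1*, counted to the first base of the site. The promoter of the other start of *Cdkn1a*, at base 29093769, held none and had at least 7 mismatches. *Perp*, *Pmaip1*, *Trp53inp1* and *Zmat3* had no promoter among the 10 and were not searched. The stretches around both sites are shown with the site in capitals, as no other of the 10 promoters held one. They run from chr17:29090903-29090972 on the plus strand for *Cdkn1a* and from chr11:40755437-40755506 on the minus strand for *Ccng1*.
Cdkn1a: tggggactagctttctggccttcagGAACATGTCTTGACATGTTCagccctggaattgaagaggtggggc
Ccng1: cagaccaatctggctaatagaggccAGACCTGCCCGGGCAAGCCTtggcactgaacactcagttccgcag

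*Trp53* starts on the plus strand of chromosome 11 at base 69580359, and *Wrap53*, which encodes a telomerase RNA binding protein, starts on the minus strand at base 69580255 and runs away from it. The 103 bases between both starts, chr11:69580256-69580358 on the plus strand of GRCm38.p6, hold in capitals the reverse complement of CCCAGCA, a stretch that occurs in matches to the ZNF143 motif. The interval is shown because *Wrap53* and *Trp53* share it.
Trp53: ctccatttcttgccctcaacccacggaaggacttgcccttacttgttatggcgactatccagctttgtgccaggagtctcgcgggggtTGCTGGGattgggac
On either strand CCCAGCA stood in 3363 of 32851 promoters (10.2%) and in 2 of the 10 promoters of these genes, those of *Trp53* and of 1 start of *Bbc3*, so that a match is common. These letters were chosen after the sequence was seen, and a match is a description and no evidence of binding.

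The libraries held 38643255 to 57895793 fragments on genes. FPKM (fragments per kilobase of gene, relative to the size of the library) were rescaled between libraries by median-of-ratios factors of 0.906 to 1.2008, since the third *Znf143 -/-* library had been deposited with the divisor of the second, 1.1967 times too small. *Zfp143*, the mouse symbol of the targeted gene, had 3.09, 4.45 and 3.68 rescaled FPKM in *Znf143 f/f* against 0.156, 0.299 and 0.272 in *Znf143 -/-* cells, a log2 difference of -3.50 (SE 0.24, adjusted p = 0.001 by limma). Of 19293 genes tested with limma, 1154 (5.98%) passed an adjusted p of 0.05, 578 higher (3.0%) and 576 lower (2.99%) in *Znf143 -/-*. On FPKM as deposited 833 passed, 529 of them (63.5%) higher against 50.1% here, and the median of all genes lay at 0.11 against 0.01 on the log2 scale. The second *Znf143 f/f* and the first *Znf143 -/-* library stood apart from the other 2 of their genotype, carrying loadings of 0.84 and 0.79 on the second and the third principal components (27.8% and 20.5% of the variance). Without the former 2286 genes passed, without the latter 2113 and without both 8115. Without any 1 of the other 4 libraries 223 to 370 passed. Of the genes behind the gate, *Kit* was at 19.45 to 22.2 FPKM in *Znf143 f/f* and at 13.5 to 16.9 in *Znf143 -/-* (log2 difference -0.45, SE 0.11, adjusted p = 0.066 by limma). *Slamf1* (CD150) was at 5.16 to 7.6 in *Znf143 f/f* and at 7.91 to 9.07 in *Znf143 -/-* (log2 difference 0.36, SE 0.17, adjusted p = 0.24 by limma). *Ly6a* (Sca-1) was at 240 to 290 in *Znf143 f/f* and at 553 to 605 in *Znf143 -/-* (log2 difference 1.13, SE 0.11, adjusted p = 0.0045 by limma).

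In the *Znf143 f/f* libraries the levels of the 10 genes ranged from high to nearly silent. Levels are rescaled FPKM, which are per listed gene length. That length need not be the length of the transcripts present, so that levels of different genes are compared only roughly. *Trp53* was the highest at 79.4 ± 3.56 (SD, n = 3), above 95.1% of the genes tested. It was followed by *Cdkn1a* at 17.3 ± 0.608 and *Ccng1* at 15.0 ± 3.30, which overlapped and are not told apart. Below them came *Bbc3* at 8.59 ± 1.00, *Mdm2* at 5.75 ± 1.08, *Perp* at 4.18 ± 0.351 and *Mdm4* at 2.27 ± 0.083. *Trp53inp1* at 1.38 ± 0.40, *Zmat3* at 0.579 ± 0.086 and *Pmaip1* at 0.0935 ± 0.048 were the lowest, and *Pmaip1* lay above only 3.0% of the genes tested. This mean of *Pmaip1* was itself below the filter of 0.1 FPKM, which is on the mean of all 6 libraries. Of the 9 neighbouring pairs in this order, only *Cdkn1a* and *Ccng1* overlapped. In the *Znf143 -/-* libraries the order was kept except that *Perp* stood above *Mdm2*. There *Cdkn1a* no longer overlapped *Ccng1*, while *Perp* overlapped *Mdm2* and *Zmat3* overlapped *Pmaip1*.

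**Figure D1:**
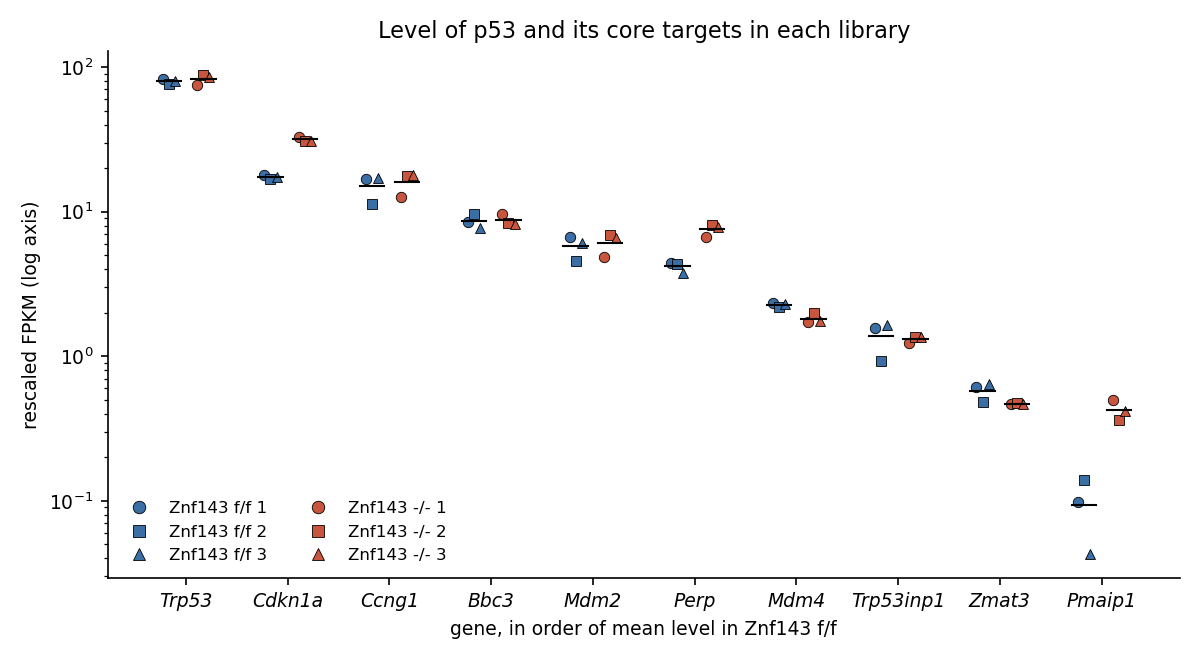
Rescaled FPKM (log axis) of each gene in the 3 *Znf143 f/f* (blue) and 3 *Znf143 -/-* (red) libraries, marked by replicate number, with the mean of each genotype as a line. *Cdkn1a*, *Perp* and *Pmaip1* had all *Znf143 -/-* libraries above all *Znf143 f/f* libraries, while *Trp53*, *Ccng1*, *Bbc3*, *Mdm2* and *Trp53inp1* overlapped.

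*Cdkn1a*, *Perp* and *Pmaip1* were higher in the *Znf143 -/-* libraries. *Mdm4* and *Zmat3* had a log2 difference below 0 under all 3 scalings, but their genotypes stood apart after rescaling only. The other 5 genes overlapped between genotypes. In the fit of all genes 3 of the 10 passed an adjusted p of 0.05, all 3 higher, beside 5.98% of all genes, and since this comparison served to choose the genes nothing is read from that count. With the first or the third *Znf143 f/f* or the second or the third *Znf143 -/-* library left out, *Cdkn1a* alone passed, and with the first *Znf143 -/-* library left out *Cdkn1a* and *Perp* did. Groups that did not overlap numbered 3 with *Znf143 -/-* above, beside 15.4% of all genes tested, and 2 with it below, beside 15.3%.

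*Trp53* mRNA was at 82.9, 75.8 and 79.5 FPKM in *Znf143 f/f* against 75.5, 88.4 and 85.4 in *Znf143 -/-* cells. The genotypes overlapped, and each library held 12833 to 20064 fragments of it. The log2 difference was 0.06 (SE 0.092, 95% interval -0.16 to 0.28). Protein level and modification of p53 were not measured here. *Trp53* was the only one of the 10 genes in the study's list of direct targets, which was drawn up in part on these libraries.

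*Mdm2*, which encodes the ligase that degrades p53 and is itself a p53 target, was at 6.64, 4.55 and 6.05 FPKM in *Znf143 f/f* against 4.89, 6.87 and 6.54 in *Znf143 -/-* cells. Both genotypes covered the same range, with 1 low library in each, and the log2 difference was 0.09 (SE 0.19, 95% interval -0.37 to 0.54). *Mdm4*, which encodes the relative that holds p53 inactive without degrading it, was at 2.34, 2.18 and 2.30 FPKM in *Znf143 f/f* against 1.71, 1.98 and 1.76 in *Znf143 -/-* cells. All *Znf143 -/-* libraries lay below, by -0.31 on the log2 scale (SE 0.13, 95% interval -0.61 to -0.01, not adjusted for the number of genes). The genotypes overlapped on FPKM as deposited (-0.20) and on FPKM divided by each library's own fragment total (-0.28). Within a library *Mdm2* FPKM were 2.83, 2.08 and 2.63 times those of *Mdm4* in *Znf143 f/f* against 2.85, 3.47 and 3.72 times in *Znf143 -/-* cells, a ratio that no scaling between libraries can alter.

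*Cdkn1a*, which encodes the cyclin-dependent kinase inhibitor p21, had the largest gap of the 10 genes relative to its standard error. It was at 18.0, 16.8 and 17.3 FPKM in *Znf143 f/f* against 33.02, 30.9 and 30.7 in *Znf143 -/-* cells. Each genotype was tight and the lowest *Znf143 -/-* library was well above the highest *Znf143 f/f* library. The mean was 1.82 times higher, a log2 difference of 0.86 (SE 0.076), which ranged from 0.80 to 0.97 over all alternatives, and *Cdkn1a* was counted at 1530 to 3970 fragments per library. *Cdkn1a* lies on chromosome 17 from base 29090976 to 29100727, and in GENCODE M21 its exons overlap AC167363.2 on the opposite strand, whose reads cannot be told apart from its own in libraries that do not mark strand.

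*Perp*, which encodes a membrane protein of desmosomes with a role in p53-dependent death, was at 4.43, 4.33 and 3.78 FPKM in *Znf143 f/f* against 6.67, 8.12 and 7.79 in *Znf143 -/-* cells. The groups stood apart, with a mean 1.80 times higher in *Znf143 -/-* and a log2 difference of 0.83 (SE 0.12). *Pmaip1*, which encodes the BH3-only protein NOXA, was nearly silent in the *Znf143 f/f* libraries. It was counted at 10, 18 and 5 fragments there and at 58, 47 and 64 in the *Znf143 -/-* libraries. In rescaled FPKM these were 0.0987, 0.139 and 0.043 against 0.497, 0.363 and 0.416, so that the groups did not overlap and the mean was 4.55 times higher, yet *Pmaip1* was still above only 21.9% of the genes tested in *Znf143 -/-*. Its log2 difference of 1.47 (SE 0.29) was on log2(FPKM + 0.1) and depended on the pseudocount, with 2.19 at 0.01 and 0.38 at 1.

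*Bbc3*, which encodes PUMA, the other BH3-only target, overlapped between genotypes. It was at 8.46, 9.65 and 7.65 FPKM in *Znf143 f/f* against 9.65, 8.31 and 8.15 in *Znf143 -/-* cells. The ranges nearly coincided, and the log2 difference was 0.02 (SE 0.12, 95% interval -0.27 to 0.31). *Ccng1*, which encodes cyclin G1, a partner of MDM2, was at 16.8, 11.2 and 17.1 FPKM in *Znf143 f/f* against 12.7, 17.5 and 17.8 in *Znf143 -/-* cells. Its genotypes overlapped with a log2 difference of 0.10 (SE 0.21, 95% interval -0.40 to 0.59). Its promoter carries a p53 site with 1 mismatch, as does that of *Cdkn1a*, and whether these sites bear on the levels was not tested. A fit without both libraries that stood apart was added after the data were seen. In it the log2 difference of *Ccng1* was 0.06 (SE 0.039) and that of *Cdkn1a* 0.80 (SE 0.041). Leaving those libraries out also lowers the spread behind these standard errors.

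*Trp53inp1*, which encodes a stress protein that takes part in autophagy and in p53 phosphorylation, was at 1.57, 0.923 and 1.65 FPKM in *Znf143 f/f* against 1.23, 1.36 and 1.36 in *Znf143 -/-* cells. The wide *Znf143 f/f* range enclosed the *Znf143 -/-* range, and the log2 difference of -0.03 (SE 0.23) changed sign on FPKM as deposited (0.08). Without the second *Znf143 f/f* and first *Znf143 -/-* libraries it was -0.23 (SE 0.095). *Zmat3*, which encodes an RNA binding zinc finger protein of the p53 tumor suppressor program, was at 0.61, 0.482 and 0.645 FPKM in *Znf143 f/f* against 0.466, 0.474 and 0.470 in *Znf143 -/-* cells. The *Znf143 -/-* libraries lay below by -0.24 on the log2 scale (SE 0.20), with the second *Znf143 f/f* library only just above them. The genotypes overlapped on FPKM as deposited (-0.15) and on FPKM by each library's own fragment total (-0.22).

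**Figure D2:**
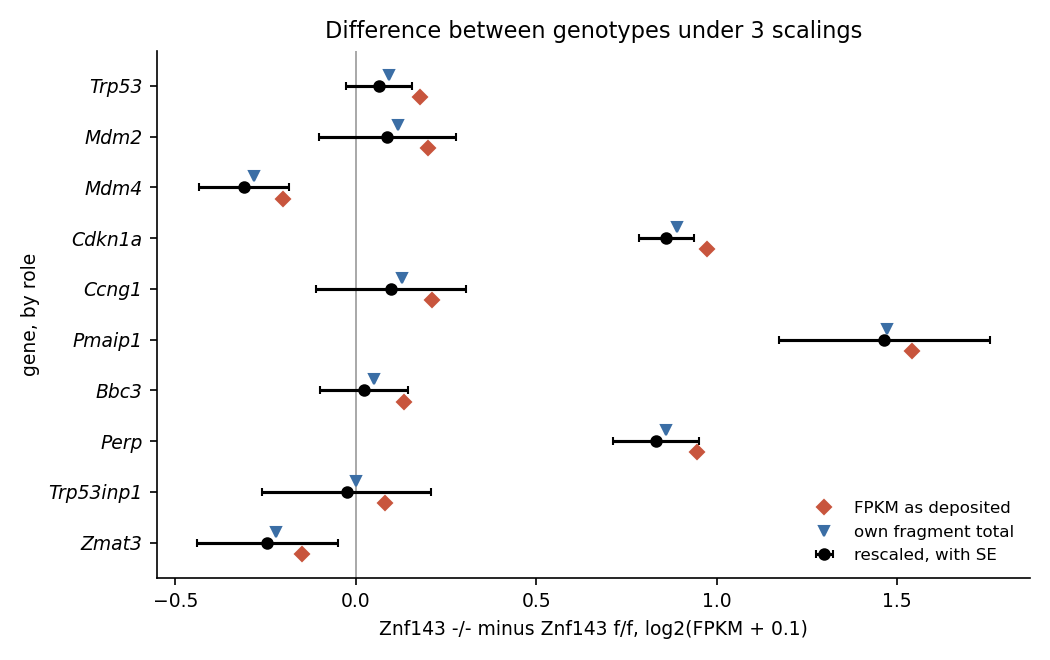
Log2 difference of each gene, *Znf143 -/-* minus *Znf143 f/f*, on log2(FPKM + 0.1), after rescaling (black, with the standard error of the limma fit), on FPKM as deposited (red diamonds) and on FPKM by each library's own fragment total (blue triangles). *Cdkn1a*, *Perp* and *Pmaip1* stayed above 0.80 under all 3 scalings, and *Trp53inp1* was the only gene whose sign changed.

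*Mdm2*, *Ccng1* and *Trp53inp1* had a low library in common in *Znf143 f/f*, the second, and *Mdm2* and *Ccng1* also in *Znf143 -/-*, the first, which are the libraries that stood apart over all genes. The ratio of *Mdm2* to *Ccng1* FPKM stayed within 0.354 to 0.405 over all 6 libraries. By contrast, the ratio of *Cdkn1a* to *Ccng1* was 1.07, 1.49 and 1.01 in *Znf143 f/f* against 2.60, 1.77 and 1.72 in *Znf143 -/-* cells, and so was higher in *Znf143 -/-* without any scaling. *Cdkn1a* stood at 0.217, 0.221 and 0.217 of the *Trp53* level in *Znf143 f/f* against 0.437, 0.350 and 0.360 in *Znf143 -/-* cells. *Pmaip1* stood at 0.0117, 0.0144 and 0.00562 of the *Bbc3* level and at 0.0515, 0.0437 and 0.0511 in *Znf143 -/-*. These ratios divide 2 genes of the same library and were not tested.

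**Figure D3:**
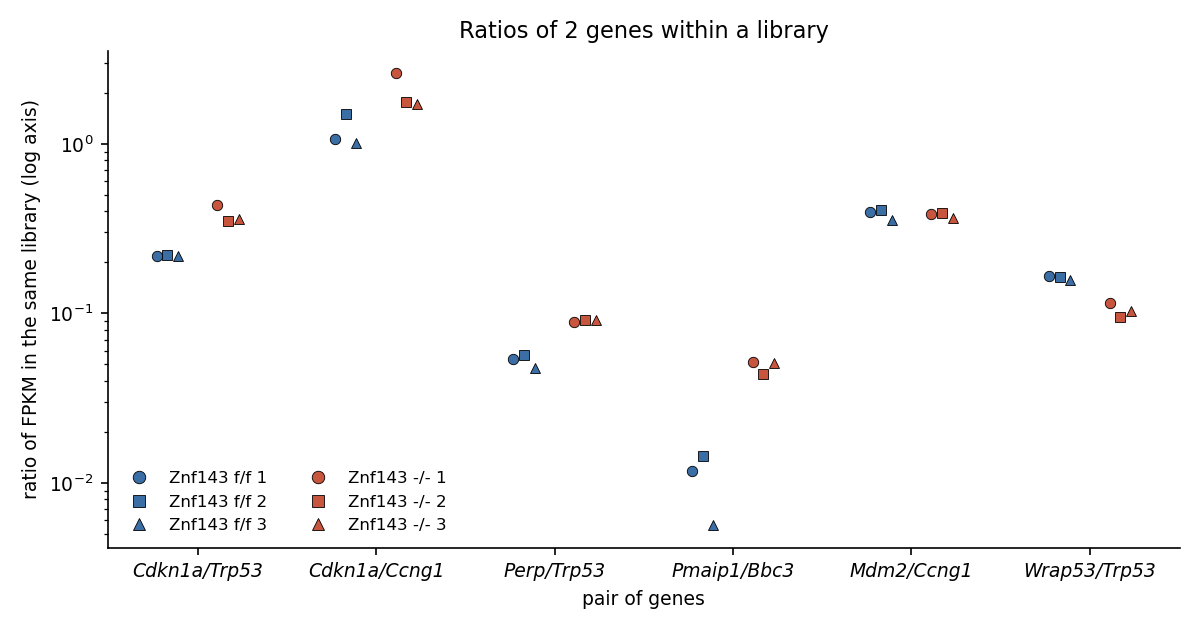
Ratio of the FPKM of 2 genes in the same library (log axis) in *Znf143 f/f* (blue) and *Znf143 -/-* (red), marked by replicate number. *Cdkn1a* relative to *Trp53* or *Ccng1*, *Perp* relative to *Trp53* and *Pmaip1* relative to *Bbc3* were higher in every *Znf143 -/-* library, *Wrap53* relative to *Trp53* was lower, and *Mdm2* relative to *Ccng1* overlapped.

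Another 58 p53 targets were counted from the fit of all genes to describe the pathway beyond these genes. In *Znf143 -/-* cells 4 rose, 1 fell and 53 did not pass (8.62% called beside 5.98% of all genes), with a median log2 difference of 0.05 beside 0.01 for all genes. Of 16 targets in cell death and autophagy 2 rose. *Spata18*, which encodes a protein of mitochondrial quality control, was at 0.459, 0.542 and 0.378 FPKM against 1.52, 1.66 and 1.17 and rose by 1.46 on the log2 scale (SE 0.21, adjusted p = 0.014 by limma). *Bcl2l14*, which encodes a BCL2 family protein, rose by 0.77 (SE 0.15, adjusted p = 0.035 by limma), from 0.932, 1.07 and 1.06 to 1.88, 1.92 and 1.62 FPKM.

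Of 9 targets in DNA repair and nucleotide supply 1 rose. *Pcna*, the sliding clamp of DNA replication and repair, was at 103, 110 and 107 FPKM against 132, 141 and 138 and rose by 0.36 (SE 0.079, adjusted p = 0.049 by limma). Of 18 targets in metabolism or with secreted and membrane products 1 rose and 1 fell. *Sulf2*, an extracellular sulfatase, rose by 1.53 (SE 0.27, adjusted p = 0.026 by limma), from 0.196, 0.236 and 0.194 to 0.548, 1.04 and 0.85 FPKM. *Ak1*, an adenylate kinase, fell by 0.56 on the log2 scale (SE 0.12, adjusted p = 0.041 by limma), from 13.6, 10.4 and 12.7 to 8.15, 8.16 and 8.30 FPKM. None of 15 targets in growth arrest and signalling passed with limma on FPKM or with voom on recovered fragments, and 3 had an unadjusted p under 0.05, as had 24.2% of all genes tested. The lowest p among them was that of *Ddit4*, an inhibitor of mTORC1, with a log2 difference of -0.56 (SE 0.16, adjusted p = 0.089 by limma).

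Each of the 5 calls among the 58 targets was lost when the first or the third *Znf143 f/f* or the second or the third *Znf143 -/-* library was left out, and without both libraries that stood apart 28 of the 58 passed, beside 42.4% of all genes in that fit. Since those libraries were left out for standing apart, their removal also lowers the spread that the test uses. *Pcna* and *Ak1* also did not pass on FPKM as deposited (adjusted p = 0.13 and 0.25 by limma). The same held on own fragment totals (0.062 and 0.098) and without the variance trend (0.10 and 0.072). *Pcna* also did not pass at a pseudocount of 0.01 (0.052) or with no filter (0.051).

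Genes that hold a near-consensus p53 site in their promoter were counted as a list that no expression value chose. With at most 1 mismatch, 6 tested genes other than *Cdkn1a* and *Ccng1* held one, and none passed in limma on FPKM, at an unadjusted p under 0.05, or in voom. With at most 2 mismatches there were 49 such genes, of which 3 rose and 1 fell (8.16% beside 5.98% of all genes), and their median log2 difference was 0.08. At an unadjusted p under 0.05 in limma there were 9 of the 49, beside 24.2% of all genes. Those 4 are named here after their values were seen. The non-coding *Mir22hg* was at 0.380, 0.711 and 0.390 FPKM against 1.82, 1.72 and 1.54, *BC035044* at 0.676, 1.08 and 0.761 against 3.38, 2.65 and 2.63, and *Cd151*, a tetraspanin, at 5.83, 5.20 and 5.97 against 9.92, 8.93 and 8.05. Their log2 differences were 1.64 (SE 0.25), 1.68 (SE 0.21) and 0.65 (SE 0.11), with adjusted p of 0.017, 0.00845 and 0.026 by limma. *B3gat3*, a glycosaminoglycan linker enzyme, was lower, at 23.9, 24.2 and 23.6 against 19.8, 17.5 and 18.4. Its log2 difference was -0.37 (SE 0.080, adjusted p = 0.049 by limma), and its genotypes overlapped on FPKM as deposited.

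Of 32 regulators of p53 (kinases, ligases, acetyltransferases, binding partners and relatives), 28 were found in the table, *Cop1* under its older symbol, and 28 were tested. None rose and 2 fell (7.14% beside 5.98%), with a median log2 difference of -0.14 beside 0.01 for all genes. *Wrap53*, the divergent neighbour of *Trp53* across the interval shown above, was at 13.8, 12.5 and 12.5 FPKM in *Znf143 f/f* against 8.68, 8.36 and 8.82 in *Znf143 -/-* cells. It fell by 0.58 on the log2 scale (SE 0.084, adjusted p = 0.015 by limma), with no overlap between genotypes, where *Trp53* on the other side of the interval overlapped. Relative to *Trp53* in the same library it stood at 0.167, 0.165 and 0.158 and then at 0.115, 0.0945 and 0.103. *Rbm38*, which encodes an RNA binding protein that binds *Trp53* and *Cdkn1a* mRNA, fell by 0.38 (SE 0.075, adjusted p = 0.038 by limma), from 17.6, 17.8 and 16.6 to 13.6, 13.1 and 13.3 FPKM. Both are in the study's list of direct targets, which is not independent of these libraries. Neither passed on FPKM as deposited, where *Wrap53* differed by -0.47 and *Rbm38* by -0.26, or with the first or the third *Znf143 f/f* or the second or the third *Znf143 -/-* library left out. Without both libraries that stood apart 18 of the 28 passed, beside 42.4% of all genes.

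Cell cycle genes that p53 lowers through p21 and the DREAM repressor complex were counted as well, since p21 mRNA was higher. None of 18 passed with limma on FPKM or with voom, and 4 had an unadjusted p under 0.05 (beside 24.2% of all genes), all 4 higher in *Znf143 -/-*. Their median log2 difference was 0.16 beside 0.01 for all genes. *Cdc25c*, the phosphatase of mitotic entry, had the lowest p at a log2 difference of 0.36 (SE 0.094, adjusted p = 0.075 by limma), from 10.01, 9.78 and 9.86 to 11.5, 12.9 and 13.8 FPKM. Without the second *Znf143 f/f* library 2 passed (beside 11.9% of all genes in that fit), without the first *Znf143 -/-* library 4 (beside 11%), and without both 14 (beside 42.4%). In each of these fits some of the genes that passed were higher and some were lower in *Znf143 -/-*.

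**Figure D4:**
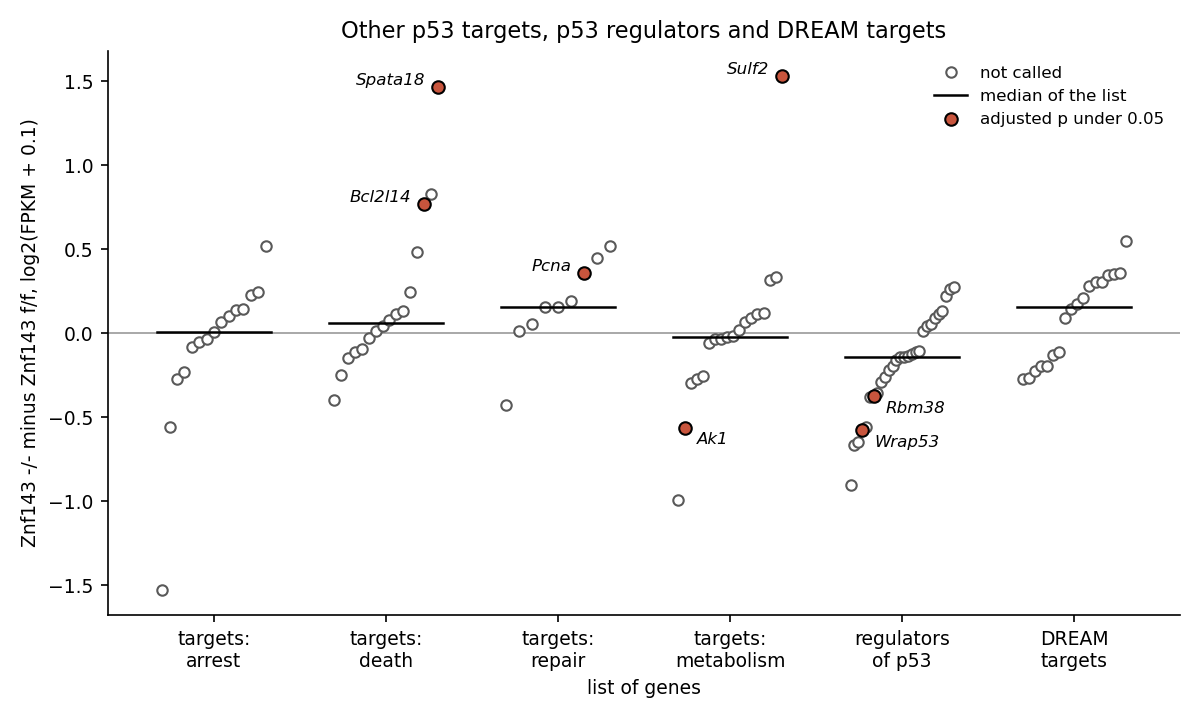
Log2 difference, *Znf143 -/-* minus *Znf143 f/f*, of each tested gene in 4 lists of other p53 targets, the regulators of p53 and the DREAM targets, sorted within a list. Filled points passed an adjusted p of 0.05 and are named, and the line is the median of the list.

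Markers of other cells moved with the same comparison, and their part in the results above was not tested. In bulk RNA fewer cells of a type and less RNA per cell cannot be told apart. Over all genes 5.98% passed an adjusted p of 0.05 in limma and 24.2% had an unadjusted p under 0.05. Of 5 neutrophil markers 3 rose (*Elane*, *S100a8* and *Ngp*, with log2 differences of 3.95, 1.40 and 1.73 and SE of 0.71, 0.29 and 0.30). *Elane* was counted at only 17, 4 and 35 fragments in the *Znf143 f/f* libraries. *Mpo* and *Ltf* did not pass and overlapped between genotypes, with log2 differences of 1.46 (SE 0.63) and -0.007 (SE 0.34). The summed level of the 5 markers was 22.4 to 42.4 FPKM in *Znf143 f/f* and 77.9 to 87.1 in *Znf143 -/-*. Most of this sum was *S100a8*, at 18.7 to 38.5 and then 57.6 to 78.4 FPKM. Of 2 macrophage markers found, *Csf1r* rose, while *Adgre1* and *C1qa* were not found under these symbols. *Csf1r* was counted at 1, 0 and 3 fragments in *Znf143 f/f* and at 40, 63 and 56 in *Znf143 -/-*. In *Znf143 f/f* the means of *Csf1r* and *Ccr2* were 0.00644 and 0.0813 FPKM, below the filter of 0.1. Both passed the filter only through the *Znf143 -/-* libraries, so that nothing is read from the call. The macrophage sum was 0.0574 to 0.112 and then 0.424 to 0.627 FPKM. Of 5 erythroid markers *Hbb-bt* fell, with sums of 36.8 to 48.1 and 37.2 to 41.3. None of 4 megakaryocyte and 2 endothelial markers found (*Cdh5* was not found) passed in limma or in voom, with 2 and 0 at an unadjusted p under 0.05. The megakaryocyte sum was 533 to 610 and then 656 to 998 FPKM, and the endothelial sum 1.10 to 1.66 and then 1.44 to 1.85. The 5 lymphoid markers were below the filter, with sums of 0.0316 to 0.199 and 0.169 to 0.264, and *Cd3g* was at 0 in all 3 *Znf143 f/f* libraries. Of 8 stem cell markers *Ly6a* rose, as given above, and *Mecom* fell, from 9.06 to 9.38 down to 6.04 to 6.79. The log2 difference lay below 0 for 6 of the 8, with a median of -0.35. At an unadjusted p under 0.05 in limma 1 was higher and 3 were lower. Their sum, in which *Ly6a* was the highest gene, was 476 to 532 and then 755 to 803 FPKM.

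The genes whose pattern over the 6 libraries was most like that of *Cdkn1a*, among 12545 others with a mean of at least 1 FPKM, were *4933417C20Rik*, *Cfap45* and *Ugt1a7c*, with Pearson correlations of log2(FPKM + 0.1) of 0.9988, 0.9983 and 0.9977. All 4 are split by genotype, so that a high value is reached by any gene with a large gap and a small spread. *4933417C20Rik* was at 1.11, 1.01 and 1.06 FPKM against 3.59, 2.94 and 2.98, *Cfap45*, which encodes a ciliary protein, at 1.97, 1.72 and 1.83 against 3.94, 3.76 and 3.55, and *Ugt1a7c*, a glucuronosyltransferase, at 0.96, 0.938 and 0.879 against 2.83, 2.50 and 2.52.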

How the data were processed

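RNA-seq was performed on sorted HSLAM cells (SMART-Seq v4 and Nextera XT, which do not mark strand). The authors used TrimGalore for trimming, STAR with GRCm38 for alignment, FeatureCounts for counting and DESeq2 for their own comparison. The authors deposited 1 table with the FPKM of each library and the listed gene length, and with their mean count, fold change, its standard error, test statistic and p-values, which were not used. Libraries and genotypes were taken from the labels. ChIP-seq and HiC samples were not analysed here.

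FPKM times length gave whole fragments (within 0.05) for 138677 of 138696 values (99.986%), and hence each library's total of 38643255 to 57895793. The third *Znf143 -/-* library carried the divisor of the second, so FPKM were rescaled by median-of-ratios factors. The test was limma 3.58.1 (R 4.3.3; lmFit and eBayes, variance trend) for log2(FPKM + 0.1) of genes whose mean reached 0.1 FPKM, with p adjusted by Benjamini-Hochberg over all of them. A fold on this scale understates the change of low genes. The fit was tested on simulated data. Python 3.11.15, numpy 2.4.6, pandas 2.3.3 and matplotlib 3.10.9 were used. Loci and overlaps come from GENCODE M21 and promoters from RefSeq on GRCm38.p6.

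The members and lists were chosen with earlier results of these data known. Named genes are the members, of each other list the genes with an adjusted p under 0.05 or else the gene with the lowest p, the targeted gene, and the 3 genes most like *Cdkn1a*. Outside this rule, genes of the gate, genes absent under their listed symbol, markers that did not pass and genes with a promoter site are named after their values were seen. Alternatives were FPKM as deposited, FPKM by each library's own fragment total, pseudocounts of 0.01 and 1, no filter, a mean of at least 1 FPKM, voom on recovered fragments, no variance trend, the replicate number as a block and each library left out. Leaving out the second *Znf143 f/f* and first *Znf143 -/-* library together was added after the data were seen.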

Additional observations from a re-analysis of the deposited data

How the results depend on the processing

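The number of the 10 genes that passed was 3, and 2 or 3 under all other scalings, pseudocounts, filters and tests except the replicate block, where it was 1. With 1 library left out it was 1 to 3. *Pmaip1* and *Zmat3* could not be fitted at a mean of at least 1 FPKM. No log2 difference of a gene that passed changed sign, which only describes the fits, since the 10 genes were chosen on this comparison. *Mdm2*, *Bbc3*, *Ccng1* and *Trp53inp1* did change sign with a library left out, with ranges of -0.07 to 0.24, -0.06 to 0.11, -0.10 to 0.26 and -0.27 to 0.12. Over all genes 191 passed with the replicate block, 833 on FPKM as deposited, and 223 to 2286 with 1 library left out (8115, or 42.4%, without both that stood apart). Of the 58 other targets, 3 passed as deposited, 3 on own fragment totals, 0 with the block and 0 to 11 with 1 library left out (28 without both). Of the regulators, 0 passed as deposited, 5 with voom, 1 without the variance trend, 0 with the block and 0 to 5 with 1 library left out (18 without both), and of the DREAM targets 0 to 4 (14 without both). In the order of levels in *Znf143 f/f*, 8 of 9 neighbouring pairs did not overlap, and 7 to 9 under its alternatives. The replicate number did not pair the libraries: same-numbered libraries deviated from their genotype means with correlations of -0.095, -0.088 and 0.036, and no label ties them to a litter. Under the block *Cdkn1a* alone of the 10 genes passed. Of the 10 genes *Pmaip1* had the fewest fragments, with as few as 5 in a library, so that its fold is the least certain.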
